A study of Homo sapiens with 4 samples.

Results

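RNA of MOLM13, a line from human acute myeloid leukaemia with the MLL::AF9 fusion, was sequenced after 12 h in SD70 and after 12 h in DMSO, and all genes were compared between these 2 libraries. Of 58735 genes, 12352 averaged at least 1 FPKM in the pair (fragments per kilobase of exon, scaled to library size) and make up the comparison. SD70 is a small molecule reported to inhibit KDM4C, a histone demethylase, and DMSO is its solvent control. The same series holds the combination of SD70 with MI-503, which keeps menin off MLL proteins, and MI-503 alone. Each treatment had 1 library, and the sources used here give no doses. The combination against MI-503 is a second pair that differs by SD70 and shares no library with the first, so its values are set beside those of SD70 against DMSO.

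Histone demethylases remove methyl groups from histone tails, and the loss or gain of such marks goes with changes in which genes are transcribed. Leukaemia cells with MLL fusions resemble growing myeloid progenitors: they make much protein and keep the machinery of translation, protein folding and mitochondrial growth at high levels. Maturing monocytes and macrophages instead build lysosomes, pattern receptors, Src-family kinases and enzymes that make eicosanoids. Genes of both programmes are described here, apart from the leading myeloid markers, sterol genes and cell-cycle genes.

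The deposited FPKM gave back whole reads for 100% of values: 14695753 in SD70 and 15550915 in DMSO, with 15093444 in the combination and 15937390 in MI-503. Myeloid markers of the line were present, with a summed level of 447 FPKM in SD70 and 363 FPKM in DMSO, and 8 of its 10 markers passed the minimum of 1 FPKM. KIT and CD34 did not. The sum holds opposite directions: CEBPA, SPI1, PTPRC and CD33 were higher in SD70, and FLT3, HOXA9, MPO and MEIS1 were lower. Summed markers of T cells were at 13.3 and 11.2 FPKM, nearly all from TRAC, those of erythroid cells at 7.24 and 6.37 FPKM, nearly all from EPOR, and CD3E, CD2, MS4A1, HBB, HBA1, PF4, COL1A2, EPCAM and CDH1 were at 0 in both libraries. Mitochondrial ribosomal RNA took 1.5% of reads in SD70 and 0.853% in DMSO, lincRNA and antisense genes took 0.829% and 0.613%, and 24165 and 22062 genes were above 0. The combination (1.43%, 0.825%, 24299) and MI-503 (0.928%, 0.642%, 22655) differed in the same direction. The part of these shares in the gene differences was not tested. In RNA from whole cultures, fewer cells of a kind and less RNA per cell cannot be told apart.

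A gene was counted where (FPKM + 1) differed by 2-fold or more. By this rule 1563 genes (12.7%) differed, 764 (6.19%) higher and 799 (6.47%) lower in SD70, and among the 9890 protein-coding genes 475 (4.80%) were higher and 597 (6.04%) lower. At 1.5-fold these became 1210 protein-coding genes higher (12.2%) and 1924 lower (19.5%). Higher genes were 48.9% of those past 2-fold with the deposited scaling. They were 60.9% after scaling to equal FPKM totals and 61.4% after scaling to equal read totals, which moved the median log2 of all genes by 0.09 and 0.10. With 1 library a side there is no test and no spread between cultures. For single genes the ratio of FPKM is given with an exact 95% counting interval (Clopper-Pearson), which covers counting error only, compares 2 libraries and not 2 conditions, and treats reads as independent although PCR copies are not.

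The direction of the difference varied with how highly a gene was expressed. When protein-coding genes were cut into 4 equal groups by mean FPKM, 7.32% of the lowest group (up to 3.94 FPKM) were at least 2-fold higher in SD70 and 1.62% were lower. In the highest group (from 17.1 FPKM) the shares were 3.48% higher and 12.1% lower, with a median log2 of -0.30. That median was -0.20 in the combination over MI-503. Genes of short exon length carried more differences of both kinds, with 6.51% higher and 9.87% lower in the shortest of 4 groups and 3.28% and 3.15% in the longest. Among noncoding classes, 11.4% of 333 lincRNA genes and 9.67% of 517 antisense genes were higher, against 2.70% and 3.09% lower. Small nucleolar RNA genes went the other way, with 11.6% higher and 33.7% lower of 95. Across the 662 genes under 300 bases, where a single read is worth more FPKM than in longer genes, 21.6% were higher and 18.9% lower.

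**Figure D1:**
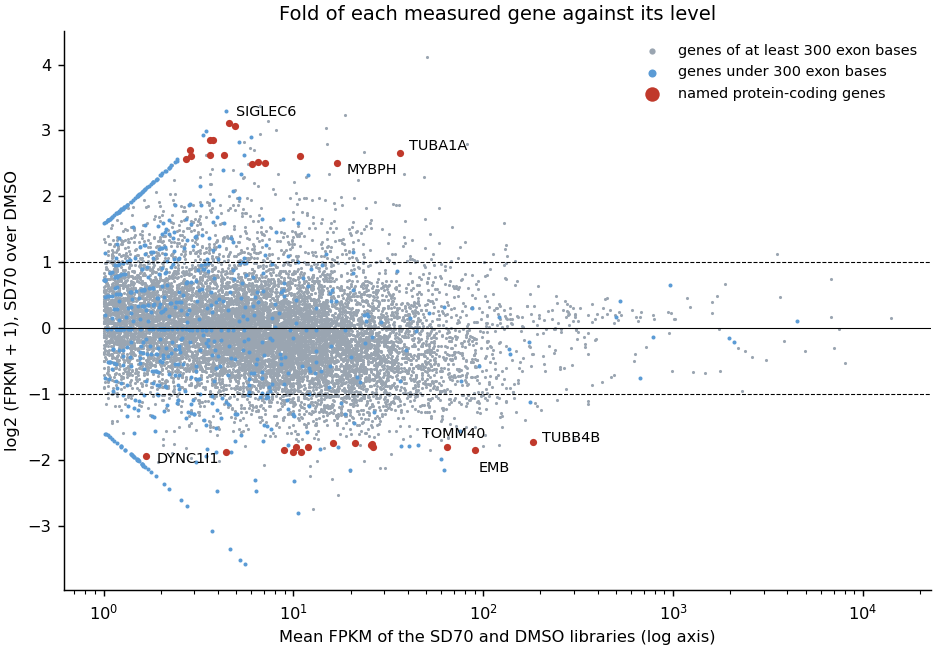
Log2 of (FPKM + 1) in SD70 over DMSO against the mean FPKM of both libraries (log axis) for the 12352 measured genes, with dashed lines at 2-fold. The cloud tilts from above 0 at low levels to below 0 at high levels, and genes under 300 bases (blue) fan out at the left edge.

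Protein-coding genes were ranked by fold after leaving out leading myeloid, sterol and cell-cycle genes and a set already known from these libraries, HSPE1 (log2 -2.17) among them. Among the 15 with the highest folds were cell-surface and immune-regulatory proteins. SIGLEC6, a sialic-acid-binding receptor, was at 8.97 FPKM in SD70 and 0.154 FPKM in DMSO (ratio 58.1, 26.4 to 159), and 16.5% of its exon bases overlap other genes. AXL, the receptor kinase for GAS6, was at 8.11 FPKM in SD70 and 0.475 FPKM in DMSO (ratio 17.1, 12.3 to 24.5). IL4I1, a secreted oxidase of aromatic amino acids, was at 6.94 FPKM in SD70 and 0.284 FPKM in DMSO (ratio 24.4, 13.4 to 49.5). All were under 1 FPKM in the vehicle library. BCL3, a nuclear member of the IkB family, was at 12.8 FPKM in SD70 and 1.43 FPKM in DMSO (ratio 8.94, 6.98 to 11.6). LRRC25, a leucine-rich repeat membrane protein, was at 10.9 FPKM in SD70 and 1.12 FPKM in DMSO (ratio 9.72, 7.04 to 13.7).

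Enzymes and cytoskeletal proteins made up much of the remainder. SDS, serine dehydratase, which turns serine into pyruvate, had 265 reads in SD70 and 1 read in DMSO, 5.70 FPKM and 0.0220 FPKM (ratio 259, 46.1 to 10261). Its DMSO level rests on that single read. TUBA1A, an alpha-tubulin, had the highest level of the 15, with 63.5 FPKM in SD70 and 9.25 FPKM in DMSO (ratio 6.87, 6.24 to 7.58); it shares sequence with other alpha-tubulins, and reads may have been split between them. MYBPH, a myosin-binding protein, was at 29.7 FPKM in SD70 and 4.4 FPKM in DMSO (ratio 6.74, 5.56 to 8.23). YPEL3, a small zinc-binding protein, was at 19.4 FPKM in SD70 and 2.35 FPKM in DMSO, and GNG7, a G-protein gamma subunit, at 11.8 and 1.23 FPKM. The kelch protein KLHDC8B (7.13 FPKM in SD70, 0.123 FPKM in DMSO), the zinc finger protein ZNF467 (9.62 and 0.266 FPKM) and LINC03040 (7.36 and 0.152 FPKM; protein-coding in GENCODE 29 despite its current name) were likewise under 1 FPKM in DMSO.

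The 15 genes with the lowest folds in this ranking were mostly well expressed in DMSO. EMB, embigin, an ancillary protein of monocarboxylate transporters, was at 38.8 FPKM in SD70 and 143 FPKM in DMSO (ratio 0.271, 0.260 to 0.281). SLC16A1, the monocarboxylate transporter MCT1 that carries lactate, was at 9.24 FPKM in SD70 and 33.1 FPKM in DMSO (ratio 0.279, 0.257 to 0.302). SLC29A1, the equilibrative nucleoside transporter, was at 11.2 FPKM in SD70 and 41.5 FPKM in DMSO (ratio 0.270, 0.249 to 0.293). All 3 serve the traffic of small metabolites across the cell membrane. TOMM40, the pore through which proteins enter mitochondria, was at 28.2 FPKM in SD70 and 101 FPKM in DMSO (ratio 0.279, 0.264 to 0.295). CNOT6L, a deadenylase that shortens mRNA tails, was at 11.1 FPKM in SD70 and 40.4 FPKM in DMSO (ratio 0.274, 0.259 to 0.290). PRDX4, a peroxiredoxin of the endoplasmic reticulum, was at 11.2 FPKM in SD70 and 40.4 FPKM in DMSO (ratio 0.277, 0.245 to 0.314).

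TUBB4B, a beta-tubulin, had the highest level of the 15, with 83.8 FPKM in SD70 and 280 FPKM in DMSO (ratio 0.299, 0.287 to 0.312), so an alpha-tubulin and a beta-tubulin stood at opposite ends of the list. PYCR3, which makes proline, was at 4.12 FPKM in SD70 and 17.9 FPKM in DMSO, and CCDC86, a nucleolar protein, at 4.76 and 19.0 FPKM, with 17.2% of its exon bases shared with other genes. DYNC1I1, a dynein intermediate chain, had 7 reads in SD70 and 223 reads in DMSO (ratio 0.0307, 0.0122 to 0.0642). EFNA5, an ephrin ligand, was at 1.29 FPKM in SD70 and 7.49 FPKM in DMSO. KCNN2, a calcium-activated potassium channel, was at 3.31 FPKM in SD70 and 14.6 FPKM in DMSO.

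**Figure D2:**
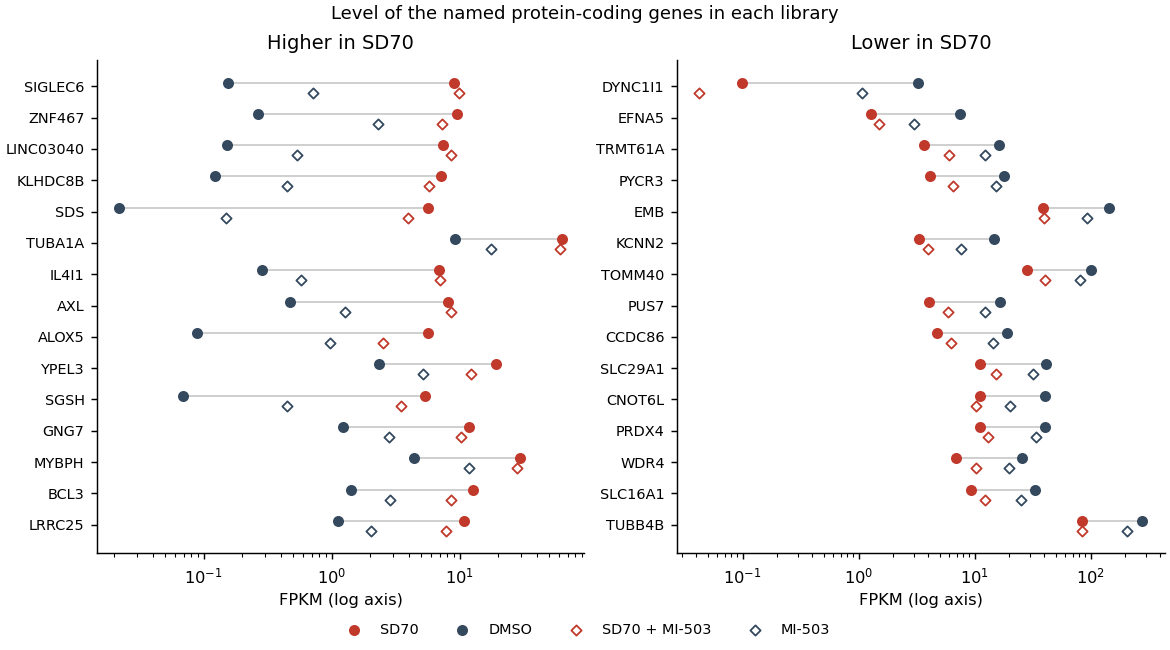
FPKM (log axis) of the 15 protein-coding genes with the highest and the 15 with the lowest fold after the genes left out of the ranking, in SD70 (filled red), DMSO (filled dark), SD70 + MI-503 (open red) and MI-503 (open dark). In each of the 30 rows both libraries with SD70 lie on the same side of both libraries without it.

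In the second pair, all 15 higher genes were higher in the combination than in MI-503, with log2 values of 0.84 to 2.65, and all 15 lower genes were lower, at -1.31 to -0.68. The counting interval of each lay on that side of 1. Both libraries with SD70 stood apart from both libraries without it for all 30. Over the 12352 genes, the libraries stood apart in this way for 31.9% with SD70 above and 41.9% with SD70 below, and choosing genes by their fold favours it. ALOX5 had the smallest second value of the higher genes: its log2 was 2.61 in SD70 over DMSO and 0.84 in the combination over MI-503, from 5.67, 0.0887, 2.53 and 0.979 FPKM in SD70, DMSO, the combination and MI-503. SIGLEC6 was near its SD70 level in the combination, at 9.82 FPKM against 0.722 FPKM in MI-503.

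Across all genes past 2-fold the second pair had the same sign for most and a smaller size. Choosing genes by their fold in the first pair favours a smaller size in the second. Of the 764 higher genes, 685 (89.7%) were higher and 470 (61.5%) at least 1.5-fold higher in the combination than in MI-503, where 7.50% of all measured genes were. Of the 799 lower genes, 712 (89.1%) were lower and 550 (68.8%) at least 1.5-fold lower, against 9.14% of all. Median log2 values were 1.37 and 0.69 for the higher genes, and -1.23 and -0.71 for the lower genes, in SD70 over DMSO and in the combination over MI-503. The median of all measured genes in the combination over MI-503 was -0.04. The log2 values of the 2 pairs had a Pearson correlation of 0.89 and a Spearman correlation of 0.88 across 9856 protein-coding genes with at least 50 reads, which are not independent replicates. Of 56 genes past 2-fold in the first pair and past 1.5-fold the opposite way in the second, 51 were under 300 bases and 0 were protein-coding.

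**Figure D3:**
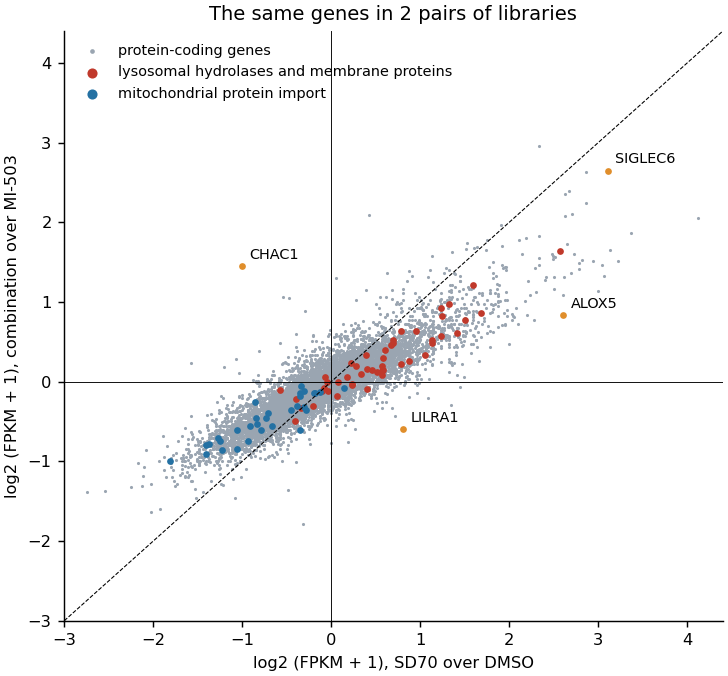
Log2 of (FPKM + 1) in the combination over MI-503 against SD70 over DMSO for protein-coding genes with at least 50 reads; the dashed line marks equal values. Points past 2-fold lie mostly nearer 0 on the vertical axis than on the horizontal one, which choosing genes by their first fold favours. Lysosomal genes (red) sit mainly at the upper right and mitochondrial import genes (blue) at the lower left. CHAC1 and LILRA1 have opposite signs in the 2 pairs.

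Promoter windows of 4 of these genes are shown for the short motifs they hold. Over genes of all levels, the share of that motif, as a ratio, stood furthest above that of all genes in their direction. CCDC86 (chr11:60841863-60842112, plus strand) and PRDX4 (chrX:23667243-23667492, plus strand), lower in SD70, hold the E-box, the letters bound by MYC, MAX and related factors. MYBPH (chr1:203175827-203176076, minus strand) and LINC03040 (chr6:44000335-44000584, plus strand), higher in SD70, hold a PU.1-type ETS motif. Each run is the 250 bases before the RefSeq start on GRCh38.p14, read on the gene's strand from 5′ to 3′, with the motif in capitals.
CCDC86: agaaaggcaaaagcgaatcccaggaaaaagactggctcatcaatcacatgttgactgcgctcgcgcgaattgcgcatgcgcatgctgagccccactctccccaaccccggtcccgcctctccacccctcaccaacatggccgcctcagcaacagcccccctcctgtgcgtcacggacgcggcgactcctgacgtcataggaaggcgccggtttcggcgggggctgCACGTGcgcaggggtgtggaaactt
PRDX4: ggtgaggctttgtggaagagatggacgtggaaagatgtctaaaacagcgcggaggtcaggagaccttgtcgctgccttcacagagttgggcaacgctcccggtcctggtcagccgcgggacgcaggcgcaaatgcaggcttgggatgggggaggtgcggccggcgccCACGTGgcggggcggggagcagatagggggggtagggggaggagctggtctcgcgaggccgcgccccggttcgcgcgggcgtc
MYBPH: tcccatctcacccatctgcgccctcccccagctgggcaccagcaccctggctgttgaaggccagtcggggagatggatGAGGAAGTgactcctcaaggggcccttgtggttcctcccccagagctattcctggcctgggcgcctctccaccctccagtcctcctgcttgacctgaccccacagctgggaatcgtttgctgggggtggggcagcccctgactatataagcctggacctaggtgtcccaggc
LINC03040: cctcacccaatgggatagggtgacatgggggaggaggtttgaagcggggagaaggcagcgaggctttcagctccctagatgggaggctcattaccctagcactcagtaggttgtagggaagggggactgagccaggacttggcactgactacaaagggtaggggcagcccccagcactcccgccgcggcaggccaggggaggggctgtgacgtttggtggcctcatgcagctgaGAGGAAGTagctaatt

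The E-box starts 25 bases before the CCDC86 start and 83 bases before the PRDX4 start. The PU.1 motif starts 172 bases before the MYBPH start and 16 bases before that of LINC03040. PUS7 and TRMT61A, also lower, hold the E-box after their start. TUBB4B, although lower, holds the PU.1 letters after its start. Motifs were searched on both strands in windows of 250 bases before to 50 after the start, for the 5835 of 9890 protein-coding genes with a single listed start. Of these genes, 245 were at least 2-fold higher and 381 at least 2-fold lower. The E-box CACGTG was in 12.7% of windows of higher genes and 18.9% of windows of lower genes, against 11.3% of all windows. The PU.1 motif GAGGAAGT was in 6.12% of higher, 2.62% of lower and 2.59% of all windows. TATAAA was in 10.6%, 4.46% and 5.07% of the same 3 sets, and the AP-1 site TGANTCA in 6.94%, 3.15% and 3.86%. The general ETS motif CCGGAAG, which shares the letters GGAAG with the PU.1 motif, was in 4.49% of higher windows, 24.1% of lower windows and 24.4% of all windows.

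Among the remaining motifs the largest gap in percentage points was that of CCAAT between higher and lower windows. CCAAT was in 33.9% of higher, 44.1% of lower and 38.5% of all windows, and the GC box GGGCGG in 64.1%, 71.4% and 73.7%. The cAMP element TGACGTCA was in 3.67%, 5.77% and 3.91%, the C/EBP motif TTGCNNAA in 9.80%, 6.56% and 6.77%, and the RUNX motif TGTGGT in 10.6%, 6.82% and 8.76%. The median number of CG dinucleotides in a window was 23 for higher genes, 28 for lower genes and 27 for all. Because level and direction went together, the shares were also taken in the 2928 genes above the median level of all protein-coding genes. There the E-box was in 10.8% of 93 higher genes, 19.4% of 304 lower genes and 12.0% of all, the ETS motif in 6.45%, 23.7% and 25.6%, the PU.1 motif in 7.53%, 3.29% and 3.04%, and TATAAA in 6.45%, 3.62% and 4.85%. The C/EBP motif, more frequent in higher genes over all levels, was there in 5.38% of higher genes, 5.59% of lower genes and 6.45% of all. The cAMP element was there in 3.23% of higher genes, 6.58% of lower genes and 3.93% of all. Among these genes its share in lower genes, as a ratio to all, was above that of the E-box. The CCDC86 run shown above also holds the cAMP element, left in small letters. A match gives letters in a window and says nothing of a bound factor.

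**Figure D4:**
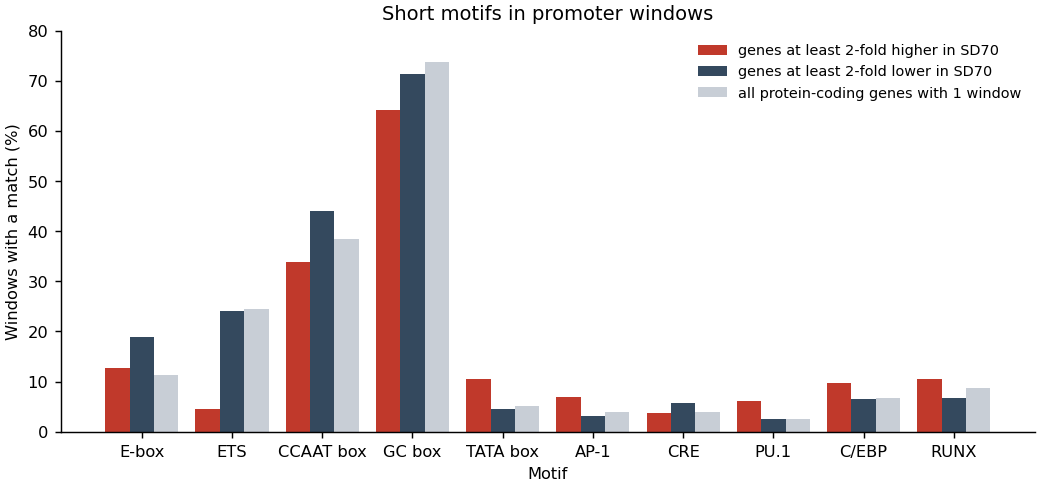
Share of promoter windows with each short motif, on either strand, among genes at least 2-fold higher in SD70 (red, 245 genes), at least 2-fold lower (dark, 381 genes) and all protein-coding genes with a single window (grey, 5835 genes). The E-box bar is tallest for lower genes, and the ETS bar is shortest for higher genes.

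Groups of genes were followed with 32 lists of 1205 genes, of which 1071 were measured. The median log2 of all protein-coding genes was -0.11 (-0.07 in the second pair), with 4.80% at least 2-fold higher and 6.04% lower. Of these 9890 genes 5754 were below 0 and 4136 above, so 0 was not their midpoint. Each of the 5 lists of protein synthesis genes had a median below -0.11. Direction also went with level: the highest of the 4 level groups had a median of -0.30, with 12.1% at least 2-fold lower. The 5 medians were below -0.30 as well, but no list was matched for level. Of 49 measured tRNA modification enzymes, 9 were at least 2-fold lower and 0 higher, with a median log2 of -0.52 (-0.31 in the second pair), and the lowest were TRMT61A, PUS7 and WDR4. TRMT61A and TRMT6 form the enzyme that methylates adenine in the T-loop of tRNA. TRMT61A was at 3.68 FPKM in SD70 and 16.3 FPKM in DMSO (ratio 0.226, 0.192 to 0.266), and TRMT6 at 7.41 and 17.9 FPKM (ratio 0.413, 0.368 to 0.463). METTL1 and WDR4 form the enzyme that makes 7-methylguanosine in tRNA. METTL1 was at 2.17 FPKM in SD70 and 7.55 FPKM in DMSO, and WDR4 at 6.92 and 25.5 FPKM (ratio 0.271, 0.237 to 0.309). Both subunits of both enzymes were thus lower. PUS7, a pseudouridine synthase, was at 4.01 FPKM in SD70 and 16.5 FPKM in DMSO (ratio 0.243, 0.212 to 0.278). PUS10, a distant relative, was at 3.03 and 1.51 FPKM (ratio between 1.67 and 2.41). It is not counted as higher, because its log2 of (FPKM + 1) was 0.68.

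Enzymes that load tRNA with amino acids work in the cytosol or in mitochondria, and each set was counted on its own. Of 23 cytosolic synthetases and their scaffold proteins, 2 were at least 2-fold lower, near the share of all protein-coding genes, and 14 at least 1.5-fold lower, 4 were above 0, and the list had a median log2 of -0.68 in SD70 over DMSO and -0.16 in the combination over MI-503. FARSB, a subunit of the phenylalanine enzyme, was at 11.2 FPKM in SD70 and 28.5 FPKM in DMSO (ratio 0.392, 0.355 to 0.432). WARS1, the tryptophan enzyme, stood apart at 24.5 FPKM in SD70 and 15.5 FPKM in DMSO (ratio 1.58, 1.48 to 1.69). Of 17 mitochondrial synthetases 5 were at least 2-fold lower, with a median of -0.55, and all 17 were below 0 in the second pair, where the median of all protein-coding genes was -0.07. MARS2, the methionine enzyme, was at 8.20 FPKM in SD70 and 20.9 FPKM in DMSO (ratio 0.393, 0.348 to 0.443).

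Initiation factors were uneven. Of 41 measured, 6 were at least 2-fold lower and 0 higher, with a median log2 of -0.40. EIF5A, the hypusine-carrying factor, was at 71.5 FPKM in SD70 and 177 FPKM in DMSO (ratio 0.405, 0.388 to 0.422), and EIF2S1, the alpha subunit of eIF2, at 12.2 and 29.1 FPKM. The 13 subunits of eIF3, the scaffold of the preinitiation complex, ranged in log2 from -0.96 (EIF3B) to 0.31 (EIF3F), with a median of -0.02 and none past 2-fold. The cytosolic chaperonin CCT, a ring that folds actin and tubulin, was more even: all 8 subunits were below 0, from -1.22 (CCT5, with 30.1% of its exon bases shared with other genes) to -0.18 (CCT8), and 5 were at least 2-fold lower. CCT2 was at 46.9 FPKM in SD70 and 106 FPKM in DMSO (ratio 0.444, 0.425 to 0.463), while CCT8 was at 153 and 174 FPKM. With prefoldin, which hands substrates to CCT, 7 of 16 were at least 2-fold lower and the median was -0.87, the lowest of the 32 lists.

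**Figure D5:**
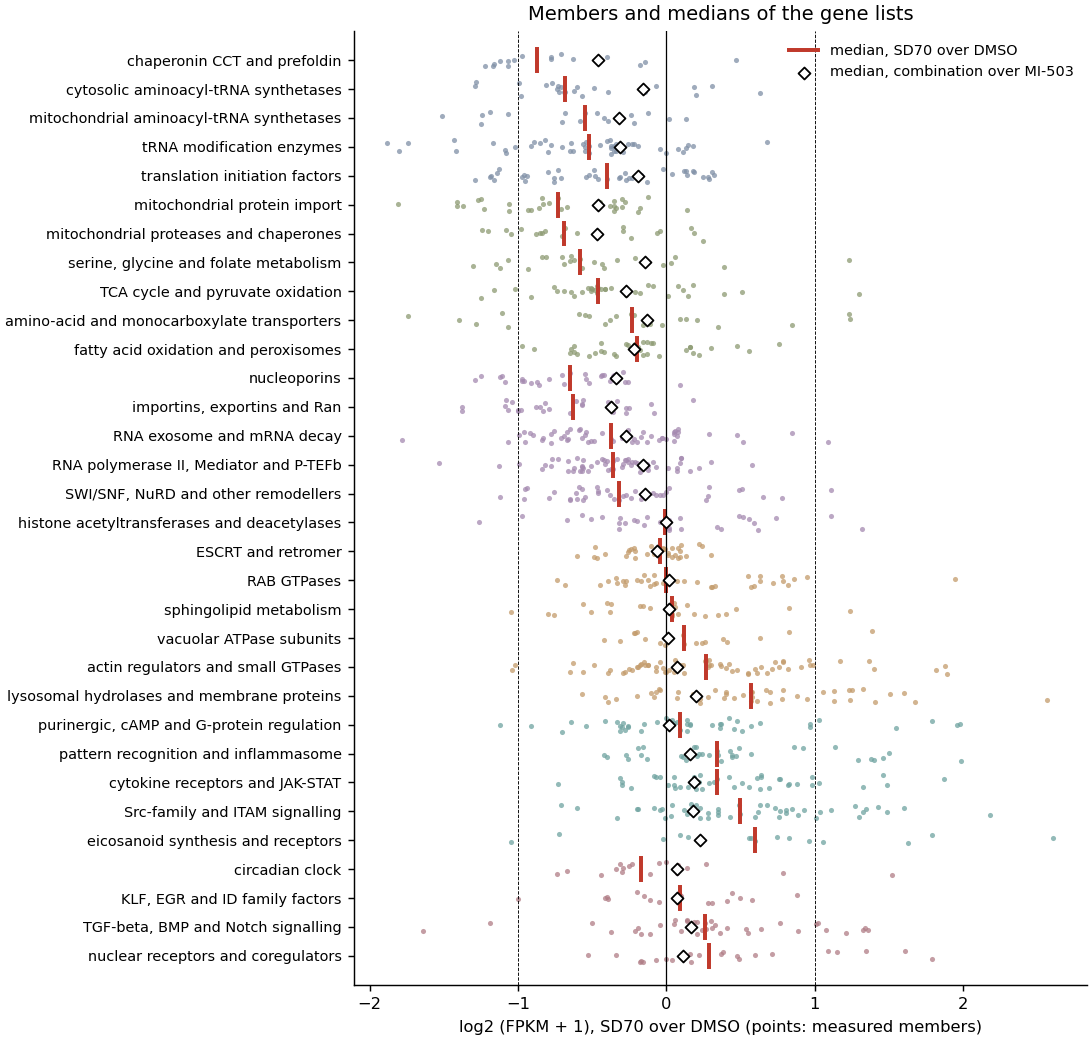
Log2 of (FPKM + 1) in SD70 over DMSO for each measured member of the gene lists (points, coloured by family), with the list median (red bar) and the median in the combination over MI-503 (open diamond). Medians run from -0.87 for chaperonin CCT and prefoldin to 0.60 for eicosanoid genes (0.24 with genes under 1 FPKM included), and dashed lines mark 2-fold.

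Measured genes of mitochondrial protein import were below 0 from the outer membrane to the matrix, except TOMM7. Of 31 measured genes, 9 were at least 2-fold lower and 0 higher, with a median log2 of -0.73, and all 31 were below 0 in the second pair. All protein-coding genes had a median of -0.07 in that pair. In SD70 over DMSO the highest of the 4 level groups had a median of -0.30, with 12.1% lower. The list was not matched for level. In the outer membrane 5 of 6 TOM proteins were below 0, TOMM40 alone was past 2-fold, and TOMM7 was at 0.14. All 14 TIM proteins of the inner membrane and intermembrane space were below 0, from -1.37 (TIMM8B) to -0.12 (TIMM10B), and 5 of them were at least 2-fold lower. TIMM23, the inner-membrane channel, was at 25.5 FPKM in SD70 and 61.2 FPKM in DMSO. HSPA9, the matrix chaperone that pulls precursors in, was at 32.4 FPKM in SD70 and 87.7 FPKM in DMSO (ratio 0.370, 0.357 to 0.383). PMPCA, a subunit of the peptidase that removes targeting sequences, was at 7.48 FPKM in SD70 and 21.6 FPKM in DMSO (ratio 0.346, 0.319 to 0.376). Among 20 mitochondrial proteases and chaperones 4 were at least 2-fold lower and 0 higher, including the chaperonin HSPD1 (120 FPKM in SD70, 285 FPKM in DMSO) and the prohibitin PHB1 (13.2 and 29 FPKM, with 25.1% of its exon bases shared).

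Central metabolism had few genes past 2-fold. Of 35 genes of the TCA cycle and pyruvate oxidation, 3 were at least 2-fold lower and 1 higher, near the shares of all protein-coding genes, and 8 were above 0, with a median log2 of -0.46. DLAT, of the pyruvate dehydrogenase complex, was at 13.1 FPKM in SD70 and 32.5 FPKM in DMSO, FH (fumarase) at 23.4 and 53.3 FPKM, and SDHA (succinate dehydrogenase) at 13.7 and 28.7 FPKM. ME1, the cytosolic malic enzyme, which makes NADPH, was the gene that was higher, at 5.96 FPKM in SD70 and 1.83 FPKM in DMSO (ratio 3.27, 2.58 to 4.16). Of 37 genes of fatty acid oxidation and peroxisomes 0 passed 2-fold either way, and their median was -0.20.

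Serine, glycine and folate metabolism had 4 of 25 genes at least 2-fold lower and 1 higher, with a median log2 of -0.58 in SD70 over DMSO and -0.14 in the second pair. SLC19A1, the reduced folate carrier, was at 5.21 FPKM in SD70 and 14.3 FPKM in DMSO (ratio 0.365, 0.337 to 0.396). MAT2A, which makes the methyl donor S-adenosylmethionine, was at 58 FPKM in SD70 and 127 FPKM in DMSO (ratio 0.455, 0.439 to 0.473). TYMS, thymidylate synthase, was at 19.5 and 44.7 FPKM, but 46.6% of its exon bases overlap other genes. PSAT1, a serine synthesis enzyme, was lower in SD70 (45.6 FPKM, against 96.6 FPKM in DMSO) and not in the combination (68.2 FPKM, against 55.8 FPKM in MI-503).

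Amino-acid and monocarboxylate transporters split, with 5 of 24 at least 2-fold lower and 2 higher, where 6.04% of all protein-coding genes were lower and 4.80% higher. SLC7A5, the exchanger of large neutral amino acids, was at 53.8 FPKM in SD70 and 132 FPKM in DMSO (ratio 0.408, 0.393 to 0.424), and in the second pair at 73.7 FPKM in the combination and 87.7 FPKM in MI-503. SLC38A5, a glutamine and serine carrier, was at 7.68 FPKM in SD70 and 21.9 FPKM in DMSO. SLC15A3, a lysosomal histidine and peptide transporter, was at 3.82 FPKM in SD70 and 1.05 FPKM in DMSO (ratio 3.64, 2.91 to 4.61), and SLC43A2, a carrier of branched-chain amino acids, at a ratio of 2.71 (2.46 to 2.98). SLC7A11, the cystine exchanger, was at 3.77 FPKM in SD70 and 1.64 FPKM in DMSO (ratio 2.30, 1.97 to 2.68). It is not among the 2 counted as higher, because its log2 of (FPKM + 1) was 0.85.

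Nuclear transport was lower on both the carrier and the pore side. Of 30 importins, exportins and Ran regulators 6 were at least 2-fold lower and 0 higher, with a median log2 of -0.63, and of 29 nucleoporins 5 were lower and 0 higher, with a median of -0.65. The highest of the 4 level groups had a median of -0.30, with 12.1% lower, and neither list was matched for level. CSE1L, the exportin that recycles importin alpha, was at 33.2 FPKM in SD70 and 87.7 FPKM in DMSO (ratio 0.378, 0.359 to 0.399). RANBP1, which promotes GTP hydrolysis by Ran, was at 13.2 FPKM in SD70 and 35.9 FPKM in DMSO (ratio 0.367, 0.340 to 0.396). XPO5, the exporter of microRNA precursors, was at 13.8 and 30.5 FPKM, and all 7 exportins were below 0. NUP188, of the inner pore ring, was at 15.8 FPKM in SD70 and 34.9 FPKM in DMSO, and NUP155, of the same ring, had a ratio of 0.390 (0.364 to 0.418).

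RNA turnover and transcription machinery had few genes past 2-fold. Of 55 genes of the exosome and mRNA decay 2 were lower, CNOT6L and the exosome subunit EXOSC5 (25.1 FPKM in SD70, 53.9 FPKM in DMSO). ZFP36L2, which recruits deadenylases to AU-rich mRNA, was higher, at 181 FPKM in SD70 and 84.5 FPKM in DMSO (ratio 2.14, 2.07 to 2.21). All 12 subunits of RNA polymerase II were below 0, from -1.53 (POLR2L) to -0.37 (POLR2A), whereas 23 of 28 Mediator subunits were below 0 and none passed 2-fold. Of all 9890 protein-coding genes 5754 were below 0. POLR2L, a small subunit shared by the nuclear polymerases, was at 12.2 FPKM in SD70 and 37.3 FPKM in DMSO (ratio 0.328, 0.279 to 0.383), with 22.5% of its exon bases shared with other genes. HEXIM1, the inhibitor of P-TEFb, was at 21.2 FPKM in SD70 and 13.8 FPKM in DMSO.

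Chromatin enzymes were mixed, and the median of the 31 histone acetyltransferases and deacetylases was -0.01, with 0.09 under both other scalings and -0.17 with a minimum of 5 FPKM. HDAC5, a class IIa deacetylase, was at 23.9 FPKM in SD70 and 8.98 FPKM in DMSO (ratio 2.66, 2.48 to 2.86). SIRT4, a mitochondrial sirtuin, had 46 reads in SD70 and 11 reads in DMSO (ratio 4.08, 2.08 to 8.74). HAT1, which acetylates newly made histone H4, was at 6.96 FPKM in SD70 and 18.1 FPKM in DMSO (ratio 0.384, 0.352 to 0.419). Among 41 remodeller subunits, with a median of -0.32, 1 was higher and 1 lower: SMARCD3, a variant SWI/SNF subunit, at 1.87 FPKM in SD70 and 0.331 FPKM in DMSO (ratio 5.63, 3.70 to 8.91), and RUVBL1, an ATPase of several complexes, at 5.63 and 13.4 FPKM. SMARCD3 and SIRT4 (0.596 FPKM in DMSO) met the minimum of 1 FPKM only through their SD70 level.

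Lysosomal genes lay mostly above 0, 38 of 48 measured. Of these 48 hydrolases and membrane proteins 12 were at least 2-fold higher and 0 lower, with a median log2 of 0.57 (0.20 in the second pair). SGSH, which removes sulfate from heparan sulfate, had 557 reads in SD70 and 7 reads in DMSO, 5.36 and 0.0690 FPKM (ratio 77.7, 37.5 to 194). It too met the minimum of 1 FPKM only through its SD70 level. CTSK, a cysteine protease of osteoclasts and macrophages, was at 5.79 FPKM in SD70 and 1.12 FPKM in DMSO (ratio 5.16, 3.52 to 7.78). ASAH1, acid ceramidase, was at 21.4 FPKM in SD70 and 6.40 FPKM in DMSO (ratio 3.35, 3.16 to 3.55). PSAP, the precursor of the saposins, was at 155 and 70.6 FPKM, SCPEP1, a serine carboxypeptidase, at 35.1 and 11.6 FPKM, NEU1, a sialidase, at 26 and 9.79 FPKM, and NPC2, which carries cholesterol, at 21.8 and 8.64 FPKM. The membrane protein LAMP1 was at 57.6 FPKM in SD70 and 59.7 FPKM in DMSO.

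The proton pump that acidifies lysosomes was nearly level. Of 18 measured subunits 1 was at least 2-fold higher: ATP6V0A1, of the membrane sector, at 13.9 FPKM in SD70 and 4.70 FPKM in DMSO (ratio 2.96, 2.72 to 3.21). The 9 measured subunits of its cytosolic sector ranged from -0.31 (ATP6V1C1) to 0.63 (ATP6V1H). Medians of the 37 RAB GTPases and of the 34 ESCRT and retromer genes took either sign across scalings, and 1 RAB and 0 ESCRT or retromer genes passed 2-fold. That RAB was RAB37, a secretory RAB, at 10.1 FPKM in SD70 and 1.87 FPKM in DMSO (ratio 5.41, 4.52 to 6.51). In sphingolipid metabolism, with a median of 0.04 over 24 genes, SAMD8, which makes ceramide phosphoethanolamine, was at 4.14 FPKM in SD70 and 1.18 FPKM in DMSO and SPTSSA, a subunit of the first enzyme of the pathway, at 11.7 and 25.3 FPKM.

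Of 15 measured leukotriene and prostaglandin genes, 4 were at least 2-fold higher and 1 lower. Their median log2 was 0.60 (0.23 in the second pair), but 12 of the 27 listed genes were under 1 FPKM, and the median was 0.24 with these included and 0.35 with a pseudocount of 5. ALOX5, 5-lipoxygenase, had 327 reads in SD70 and 5 reads in DMSO (ratio 63.9, 27.1 to 198). It was under 1 FPKM in DMSO and met the minimum only through its SD70 level. ALOX5AP, the membrane protein that presents arachidonate to ALOX5, had a log2 of 1.06 from a DMSO level of 47.5 FPKM. PTGS1, cyclooxygenase, was at 10.3 FPKM in SD70 and 2.67 FPKM in DMSO (ratio 3.86, 3.35 to 4.48), and PTGER4, a receptor for prostaglandin E, at 7.57 and 1.49 FPKM (ratio 5.09, 4.05 to 6.46). The gene past 2-fold lower was PTGES3, at 76.9 FPKM in SD70 and 160 FPKM in DMSO, which is also the HSP90 co-chaperone p23. PTGES2, a prostaglandin E synthase, was at 16.8 FPKM in SD70 and 28.3 FPKM in DMSO (ratio 0.593, 0.542 to 0.649).

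Of 68 actin regulators and small GTPases 6 were at least 2-fold higher and 2 lower, with a median log2 of 0.27. Over all protein-coding genes the shares were 4.80% higher and 6.04% lower. ARHGEF3, an exchange factor for small GTPases, was at 16.9 FPKM in SD70 and 3.81 FPKM in DMSO (ratio 4.43, 3.96 to 4.96). MYO1G, a membrane-linked myosin of blood cells, was at 53.1 FPKM in SD70 and 13.7 FPKM in DMSO (ratio 3.88, 3.69 to 4.09), and CAPG, which caps actin filaments, at 91.1 and 25.1 FPKM (ratio 3.63, 3.38 to 3.90). ARHGDIA, which holds small GTPases in the cytosol, was lower, at 36.5 FPKM in SD70 and 76.2 FPKM in DMSO, with 26.2% of its exon bases shared with other genes. The other lower gene, ARPC1A, shares 58.4% of its exon bases and is uncertain.

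Of 48 measured Src-family kinases and genes that signal through ITAM or ITIM motifs, 11 were at least 2-fold higher and 0 lower. Of the same 48, 9 were below 0, and the median log2 was 0.50 (0.31 with a pseudocount of 5 or a minimum of 5 FPKM). FGR, a Src-family kinase of phagocytes, was at 6.57 FPKM in SD70 and 0.667 FPKM in DMSO (ratio 9.85, 6.95 to 14.4). With under 1 FPKM in DMSO, FGR met the minimum only through its SD70 level. The adaptors FCER1G (4.89 FPKM in SD70, 1.10 FPKM in DMSO) and TYROBP (114 and 45.5 FPKM) were higher with it. All 4 measured LILRB receptors, which carry inhibitory motifs, were above 0, led by LILRB4 at 24.1 FPKM in SD70 and 7.30 FPKM in DMSO (ratio 3.30, 3.03 to 3.60). YES1 (4.16 and 6.83 FPKM), the broadly expressed member of the kinase family, and PLCG1 (3.26 and 5.96 FPKM) had ratios of 0.609 (0.529 to 0.700) and 0.547 (0.489 to 0.612).

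Of 35 measured pattern recognition and inflammasome genes 7 were at least 2-fold higher and 0 lower, with a median log2 of 0.34. A further 11 of the 46 listed genes were under 1 FPKM. The median was 0.29 with these included, 0.22 with a minimum of 5 FPKM and 0.19 with a pseudocount of 5. LY96, also called MD-2, which binds lipopolysaccharide beside TLR4, had 28 reads in SD70 and 0 in DMSO. That is at least 9.12-fold higher when 3 reads stand for a count of 0, and the exact counting interval allows a ratio as low as 6.94. TLR4 was at 3.32 FPKM in SD70 and 0.658 FPKM in DMSO, and CD180, a TLR4-like receptor, at 10.4 and 3.15 FPKM (ratio 3.30, 2.87 to 3.79). NLRP1, an inflammasome sensor, was at 2.39 FPKM in SD70 and 0.202 FPKM in DMSO (ratio 11.8, 8.54 to 16.9). TLR1 (2.69 and 0.671 FPKM) and TLR6 (3.97 and 1.03 FPKM), which each pair with TLR2, were past 2-fold, and TLR2 itself (10.6 and 7.94 FPKM) was not. LY96, TLR4, NLRP1 and TLR1 were under 1 FPKM in DMSO and met the minimum only through their SD70 level.

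Of 43 cytokine receptor and JAK-STAT genes 5 were at least 2-fold higher and 0 lower, with a median log2 of 0.34, and 13 more were under 1 FPKM. IL10RA, the ligand-binding chain for interleukin 10, was at 6.22 FPKM in SD70 and 0.980 FPKM in DMSO (ratio 6.35, 5.23 to 7.76). IL13RA1 was at 15.4 FPKM in SD70 and 4.95 FPKM in DMSO (ratio 3.10, 2.74 to 3.52), and IL21R, with 23.3% of its exon bases shared, at 2.61 and 0.291 FPKM (ratio 8.99, 5.89 to 14.3). IL10RA and IL21R, under 1 FPKM in DMSO, met the minimum only through their SD70 level. CSF3R, the receptor for G-CSF, was at 60.7 and 23.6 FPKM.

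Purinergic and G-protein genes had 5 of 45 higher and 1 lower, with a median log2 of 0.09, where 4.80% of all protein-coding genes were higher and 6.04% lower. P2RX7, the ATP-gated channel of macrophages, was at 17.6 FPKM in SD70 and 3.77 FPKM in DMSO (ratio 4.66, 4.13 to 5.28), and P2RX1 at 36.4 and 11.8 FPKM. ADA2, a secreted adenosine deaminase, was at 8.21 FPKM in SD70 and 1.67 FPKM in DMSO (ratio 4.93, 4.26 to 5.73). ARRB2, a beta-arrestin that uncouples G-protein receptors, was at 19.1 and 4.10 FPKM (ratio 4.65, 4.08 to 5.32). The lower gene was ADCY3, an adenylyl cyclase, at 3.31 FPKM in SD70 and 8.37 FPKM in DMSO, with 26% of its exon bases shared with other genes.

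Among nuclear receptors and coregulators 5 of 22 measured were at least 2-fold higher and 0 lower, with a median log2 of 0.29. A further 13 of the 35 listed genes were under 1 FPKM. The median was 0.15 with these included and 0.16 with a minimum of 5 FPKM. RARG, a retinoic acid receptor, was at 3.92 FPKM in SD70 and 0.607 FPKM in DMSO (ratio 6.46, 4.74 to 8.98), and DHRS3, which reduces retinal, at 6.22 and 1.09 FPKM (ratio 5.70, 4.21 to 7.86). PPARD, a fatty-acid receptor, was at 26.6 FPKM in SD70 and 9.83 FPKM in DMSO (ratio 2.70, 2.47 to 2.96), and in the second pair at 25 FPKM in the combination and 10.7 FPKM in MI-503. PPARG was at 2.37 FPKM in SD70 and 0.584 FPKM in DMSO. Both RARG and PPARG, under 1 FPKM in DMSO, met the minimum only through their SD70 level. Of 18 circadian clock genes 1 was past 2-fold, BHLHE40, a repressor of the clock, at 19.8 and 6.26 FPKM (ratio 3.17, 2.81 to 3.57), while PER2 was at 3.54 and 6.59 FPKM. On the list of KLF, EGR and ID factors, which also holds HES genes, 0 of 17 measured were at least 2-fold higher. HES6, of the HES family, was lower, at 20.4 and 41.8 FPKM.

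TGF-beta, BMP and Notch genes had 7 of 37 at least 2-fold higher and 2 lower, with a median log2 of 0.26. SMAD3, a signal transducer of TGF-beta, was at 6.09 FPKM in SD70 and 1.82 FPKM in DMSO (ratio 3.34, 2.90 to 3.86), and its inhibitors SKIL (6.55 and 1.98 FPKM) and SMAD7 (3.52 and 1.14 FPKM) were higher too. NOTCH2 was at 20.2 FPKM in SD70 and 8.14 FPKM in DMSO, and LFNG, which adds sugars to Notch, at 9.64 and 3.16 FPKM (ratio 3.06, 2.56 to 3.67). NRARP, a feedback inhibitor of Notch, was lower, with 32 reads in SD70 and 106 reads in DMSO (ratio 0.295, 0.192 to 0.441). BMP8B, a BMP ligand, was at 8.67 FPKM in SD70 and 29.2 FPKM in DMSO (ratio 0.297, 0.272 to 0.325).

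The lysosomal gene SGSH had a neighbour that differed with it. SGSH starts 30 bases from SLC26A11, a sulfate transporter on the opposite strand, which had 347 reads in SD70 and 0 in DMSO. That is at least 113-fold higher when 3 reads stand for a count of 0, and the exact counting interval allows a ratio as low as 91.4. In the second pair SLC26A11 was at 2.51 FPKM in the combination and 0.157 FPKM in MI-503. After these values were seen, all 755 head-to-head protein-coding pairs with starts within 1000 bases were listed. In 134 of them at least 1 gene was past 2-fold, and in 8 both were, 4 pairs higher, 4 pairs lower and 0 in opposite directions. Partners of a gene past 2-fold were past 2-fold in 11.3% of cases, against 9.4% of all pair members, so the first share was near the second. The other higher pairs included FADS1 with FADS2 and C11orf21 with TSPAN32, and the lower pairs were HSPD1 with HSPE1, PPAT with PAICS, RRP12 with PGAM1, and TRMT6 with MCM8. Across the 755 pairs the log2 values of partners had a Spearman correlation of 0.11. The sources used here do not give the strand setting, so reads of partners that overlap, such as HSPE1 with 23.9% of its exon bases shared, cannot be told apart.

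The 4 highest and the 4 lowest noncoding genes and pseudogenes of at least 300 bases were of several kinds. NAPSB, a pseudogene of the napsin protease, was at 81.0 FPKM in SD70 and 15.7 FPKM in DMSO (ratio 5.17, 4.67 to 5.72), and NCF1C, a copy of the oxidase subunit gene NCF1, at 29.2 and 6.63 FPKM. The lincRNA gene ENSG00000280441, at 3.65 FPKM in SD70 and 0.106 FPKM in DMSO, had the largest ratio of the 4 (34.4, 13.2 to 128). Its DMSO level rests on 4 reads, and its ratio in the second pair was 2.21 (1.37 to 3.67). How multiply mapped reads of this gene were handled is not known. The antisense gene ENSG00000274767, with 24.4% of its exon bases shared, was at 4.43 FPKM in SD70 and 0.331 FPKM in DMSO. At the low end were the pseudogenes SPCS2P4 (4.75 FPKM in SD70, 27 FPKM in DMSO), MEMO1P1 (0.582 and 5.22 FPKM) and FABP5P7 (22.2 and 82.4 FPKM). JMJD1C-AS1, antisense to JMJD1C, had 3 reads in SD70 and 75 reads in DMSO (ratio 0.0391, 0.00788 to 0.119). Reads of pseudogenes cannot be told from those of their parents without knowing how multiply mapped reads were handled, so these values are uncertain.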

How the data were processed

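RNA sequencing was compared between 1 SD70 and 1 DMSO library, grouped by the treatment label, with the combination and MI-503 as a second pair. The authors deposited 1 value per gene and library, read here as FPKM from the values, since the file headers do not name the unit. BWA, Bowtie and hg38 are named in the submitters' processing notes, with no version or role; the sources used here do not give the read counter, its annotation or strand setting. FPKM times GENCODE 29 union-exon length gave whole reads within 0.01 read for 100% of values, so 1 read in 1 kb was worth 0.0641 to 0.0662 FPKM. All 58735 identifiers were in GENCODE 29 and 58207 in the gene name table.

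Genes averaging at least 1 FPKM in the pair were kept, and folds are on the log2(FPKM + 1) scale, which understates the difference of low genes. With 1 library per group no test was made; nothing says whether a library stands for 1 culture. Ratios and intervals use recovered reads (Python 3.11.15, numpy 2.4.6, pandas 2.3.3, scipy 1.17.1). Scripts were tested on simulated data. Named genes were the 15 highest and 15 lowest protein-coding genes with at least 50 reads, leaving out leading myeloid, sterol and cell-cycle genes and genes of an earlier account; the up to 3 highest and 3 lowest of each list past 1.5-fold; and the 4 highest and 4 lowest other genes of at least 300 bases. Further list members past 2-fold or in the same complex, the head-to-head pairs, CHAC1 and LILRA1 were named after their values were seen. A few genes that these rules name are not reported here. The comparison and the 32 lists were chosen with earlier results of these data known. Promoter sequences are RefSeq's on GRCh38.p14, with an entry for 8158 of 9890 protein-coding genes. Alternatives were the pseudocount, the filter, the scaling, protein-coding genes alone and a ratio without pseudocount.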

Additional observations from a re-analysis of the deposited data

Results flagged for a closer look

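CHAC1, which breaks down glutathione, and LILRA1, an activating leukocyte receptor, were the only protein-coding genes with at least 50 reads that were past 1.5-fold in opposite directions in the 2 pairs; the difference between the pairs was not tested. CHAC1 was at 2.54 FPKM in SD70 and 6.08 FPKM in DMSO (ratio 0.419, 0.319 to 0.546), but at 3.68 FPKM in the combination and 0.716 FPKM in MI-503 (ratio 5.13, 3.26 to 8.41). Its lowest level was thus in MI-503 alone. LILRA1 was at 5.33 FPKM in SD70 and 2.60 FPKM in DMSO (ratio 2.05, 1.67 to 2.52), and at 2.78 FPKM in the combination and 4.70 FPKM in MI-503 (ratio 0.591, 0.481 to 0.724), so each agent alone was above both DMSO and the combination.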

How the results depend on the processing

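The count of genes past 2-fold was 1563. It was 2353 with a pseudocount of 0.1, 462 with a pseudocount of 5 and 899 with a mean of at least 5 FPKM; a larger pseudocount or filter leaves fewer low genes past the fold by construction. It stayed within 1.5 times the main count with no filter (1935), the same FPKM total (1536), the same read total (1506), protein-coding genes alone (1072) and a ratio without pseudocount (1877). Higher genes were 33.1% to 61.4% of these counts, so the balance of higher and lower genes rests on the setting. The 172 genes chosen by the naming rules or as pair members kept their side in 4 other settings of pseudocount and scaling; further genes named after their values were seen were not rerun. The medians of 3 lists (histone acetyltransferases and deacetylases, RAB GTPases, ESCRT and retromer), each within 0.1 of 0, changed sign in a setting. Of 26 lists with a median past 0.1, 13 moved by over 1.5 times in at least 1 setting; the median of eicosanoid genes was 0.24 to 0.86. No paired analysis was possible because each group had 1 library. Depth limits genes of few reads: intervals of SDS, LY96 and SLC26A11 are wide, and no interval covers differences between cultures.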

Other observations

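Chromosome 19 had another balance in these libraries: of its 759 measured protein-coding genes, 8.43% were at least 2-fold higher in SD70 and 3.56% lower, with a median log2 of 0.05, whereas the other autosomes and X had medians of -0.05 to -0.28. Chromosome 21 lay at the other end, with 2.22% of 90 genes higher and 11.1% lower. Chromosome 6, with 8.15% of 503 genes higher and 6.56% lower, had many differences of both kinds. These shares and medians hold for the deposited scaling and were not tested.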
